A study of Mus musculus with 2 samples.

Results

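The antioxidant enzymes described here are the superoxide dismutases *Sod1*, *Sod2* and *Sod3*, the catalase *Cat*, the peroxiredoxins *Prdx1*, *Prdx2*, *Prdx3* and *Prdx5*, and the glutathione peroxidases *Gpx1* and *Gpx4*. They were chosen by name, as 10 of the 17774 genes with deposited counts, and each was found under its symbol. The counts come from single cells sorted for green fluorescence from retinae of *Pde6c*.GFP mice at postnatal day (PN) 24. These are C57BL/6 mice that carry the *Pde6c* cpfl1 mutation, in which cones degenerate early, crossed with the Chrnb4.eGFP line, and both groups share this genotype. The uninjected group received nothing, and no sham-injected cells were sequenced. The GSK-J4-treated group received 1 intravitreal injection of GSK-J4 (10 µM), an inhibitor of Jumonji-type histone demethylases, at PN14, and retinae were taken 10 days later. The names of the treated cells hold the word adult, although the labels give PN24. The green protein is driven by the *Chrnb4* promoter, so that the sort selects cells in which this promoter is active, and the number of animals was not given.

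Superoxide leaks from the electron transport chain and is formed by oxidases. Superoxide dismutases turn it into hydrogen peroxide, which catalase breaks down in peroxisomes, and which peroxiredoxins and glutathione peroxidases reduce with electrons from thioredoxin and glutathione. Photoreceptors have a high demand for oxygen and hold lipids that are easily oxidized, and oxidative damage is a known feature of cone death in retinal degeneration.

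Sequences are shown for the features that set these genes apart. *Gpx1* and *Gpx4* encode selenoenzymes, in which the codon TGA (in capitals) is read as selenocysteine, the residue of the active site. In GENCODE vM21 on GRCm38 it is codon 47 in exon 1 of 2 of its transcript, at chr9:108339451-108339453 on the plus strand, and codon 129 in exon 3 of 7 of the *Gpx4* transcript numbered first, at chr10:80054737-80054739 on the plus strand, and both stand here with the coding bases around them.
Gpx1 codon: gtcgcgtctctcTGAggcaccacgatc
Gpx4 codon: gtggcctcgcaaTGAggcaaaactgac
The promoters (250 bases before to 50 after the start site, RefSeq, GRCm38.p6) were searched on both strands for TGACNNNGC, the core letters of the antioxidant response element, since several members are textbook targets of the transcription factor NRF2 that reads it. Of 9 members with an entry, 2 held a match, as did 4071 of all 32851 promoters (12.4%). Both matches lie on the strand opposite to the gene and are in capitals, within a printed window that also holds the bases around them. The window of *Sod1* is chr16:90220696-90220724, and its match begins 56 bases before the start site. The window of *Prdx1* is chr4:116685456-116685484, and its match begins 133 bases before the start site.
Sod1 promoter: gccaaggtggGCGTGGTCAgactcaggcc
Prdx1 promoter: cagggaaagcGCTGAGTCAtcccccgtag
The *Prdx1* match also contains TGAGTCA, the letters of an AP-1 site. A match of letters is a description and was not tied to binding.

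The uninjected library held 82 cells and the GSK-J4-treated library 64 cells after filtering, with totals of 1113424 and 208578 UMI counts. The uninjected cells had a median of 8118 counts (860 to 98250) and the treated cells 2335.5 (420 to 15371). Each condition was 1 library on 1 plate, so plate and treatment cannot be told apart, no test between them was possible, and the 95% intervals below cover counting error only. The label cone photoreceptor was checked against 11 cone markers. They took 2.59% of the uninjected counts and 0.358% to 9.81% in every uninjected cell, but 0.213% of the treated counts (0% to 6.74% by cell), where 50 of 64 cells had no count of any and 5 of the 11 genes were at 0. The treated library is therefore called by its treatment and not as cones. Rod markers moved the same way, at 0.228% and 0.0129%, and mitochondrial genes had a median of 0.952% of a cell's counts against 0.0146%. The part of depth, cell identity and RNA quality in the results below was not tested.

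The 10 enzymes together took 1801 uninjected counts, 0.162% of the library (0.154 to 0.169), and 76 treated counts, 0.0364% (0.0287 to 0.0456), a ratio of 4.44 (3.53 to 5.66). In the uninjected library 79 of 82 cells held a count of at least 1 enzyme, and in the treated library 19 of 64 did (29.7%, 18.9 to 42.4). Most uninjected cells thus held several enzymes, with a median of 4 of the 10 (0 to 8), whereas most treated cells held none (0 to 3). Since the treated cells were shallower, each cell was also thinned at random to 867 counts, which left out 1 uninjected and 14 treated cells. At this equal depth 49 of 81 uninjected cells (60.5%, 49.0 to 71.2) and 10 of 50 treated cells (20%, 10.0 to 33.7) held a count. A summed share of this kind cannot tell fewer cells with a transcript from less of it per cell, which the shares of cells below address in part.

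Differences of single genes are given as a log-fold, the natural log of the mean count per 10000 plus 1 in treated cells minus that in uninjected cells. A log-fold beyond 0.3 was counted as lower or higher, the size used in the study's methods. The study also required a p-value threshold and applied a batch correction, neither of which was used here. By this measure 6 of the 10 enzymes were lower in the treated library (*Sod1*, *Sod2*, *Prdx1*, *Prdx2*, *Prdx5* and *Gpx4*) and 0 were higher. Of all 15947 genes 11.8% were lower and 12.6% higher, and of the 7682 genes found in 10% or more of the cells of a library 24% were lower and 20.4% higher. The median log-fold was -0.70 over the 10 enzymes and 0.033 over all genes. The 4 enzymes within 0.3 were *Sod3*, *Cat*, *Prdx3* and *Gpx1*, each with 36 or fewer uninjected counts. Their uninjected means were only 0.146, 0.0967, 0.0825 and 0.214 per 10000. With 1 added to each mean, even 0 treated counts would have left them within 0.3. This measure therefore could not have called these 4 lower, and their place within 0.3 is not a result about them. *Gpx1*, at -0.18, was the nearest of them to the threshold, and *Prdx5*, at -0.66, was the nearest beyond it.

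**Figure D1:**
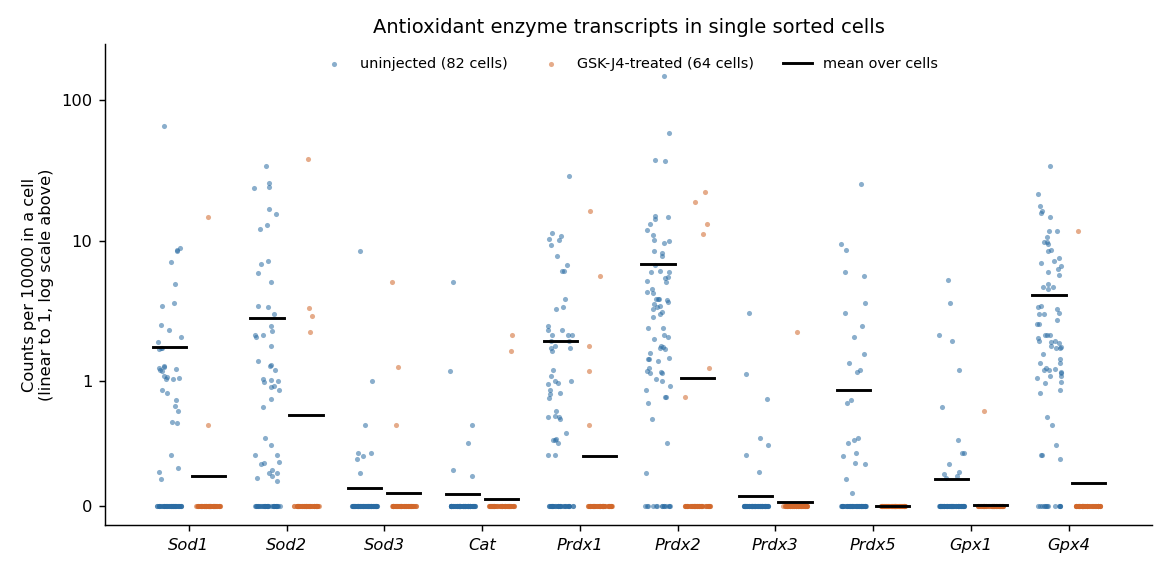
Counts per 10000 of each enzyme in every cell, on an axis that is linear up to 1 and logarithmic above, with 82 uninjected cells in blue, 64 GSK-J4-treated cells in orange and the mean over cells as a black line. The uninjected points of *Prdx2* and *Gpx4* fill the range from under 1 to 149 and 34.1, whereas nearly all treated points lie at 0.

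*Sod1*, on chromosome 16 (90220754 to 90226329, plus strand), encodes the copper and zinc enzyme of the cytosol. It had 182 uninjected counts (157 to 210.4) in 37 of 82 cells and 7 treated counts (2.81 to 14.4) in 2 of 64 cells. Per 10000 counts the uninjected cells ranged from 0 to 65.7 with a median of 0, and the treated cells from 0 to 14.8. Its log-fold was -0.80, from means of 1.76 and 0.242, and summed over the libraries its rate was 4.87-fold higher in the uninjected (2.32 to 12.3). *Sod1* was at 0 in most cells of both libraries, so the groups overlap. A single uninjected cell gave 60 of the 182 counts (33.0%) although it was only the 35th deepest, and 1 treated cell gave 6 of the 7. After thinning *Sod1* was found in 5 of 81 uninjected and 0 of 50 treated cells (up to 7.11%), a difference within the intervals.

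*Sod2*, on chromosome 17 (13006846 to 13040063, plus strand), encodes the manganese enzyme of the mitochondrial matrix. It had 381 uninjected counts (344 to 421) in 47 cells and 8 treated counts (3.45 to 15.8) in 4 cells. Scaled values ran from 0 to 33.9 with a median of 0.313 in the uninjected library and from 0 to 38.3 with a median of 0 in the treated, and the ranges overlap. The highest value of all was thus in a treated cell, which held 5 of the 8 treated counts in a total of 1307. The log-fold of *Sod2* was -0.79, and it was -1.14 without the cell with the most counts in each library, -0.44 after thinning and -1.46 when scaled by median-ratio size factors. Its summed rate was 8.92-fold higher in the uninjected library (4.48 to 20.8). *Sod2* counts lay unevenly over the uninjected cells as well, with 94 of them (24.7%) in 1 cell.

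*Sod3*, on chromosome 5 (52363791 to 52371418, plus strand), encodes the secreted extracellular enzyme and was rare in both libraries. It had 12 uninjected counts in 8 cells and 3 treated counts in 3 cells. No difference was detectable at this depth, since the ratio of summed rates was 0.749 (0.202 to 4.14). Its log-fold of -0.03 turned positive with summed libraries (0.032), after thinning (0.074) and with at least 500 genes per cell (0.093).

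*Cat*, on chromosome 2 (103453849 to 103485160, minus strand), the catalase of the peroxisome, was as rare, with 12 uninjected counts in 6 cells and 2 treated counts in 2 cells. The deepest uninjected cell alone held 5 of the 12. Its log-fold was -0.04 and the ratio of summed rates 1.12 (0.250 to 10.3), so that a difference of several fold in either direction could not have been seen.

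*Prdx2*, on chromosome 8 (84969587 to 84974834, plus strand), encodes a cytosolic peroxiredoxin that reduces hydrogen peroxide with electrons from thioredoxin. Its 487 uninjected counts (445 to 532) came from 68 of 82 cells (82.9%, 73.0 to 90.3), and its 39 treated counts (27.7 to 53.3) from 6 of 64 cells (9.38%, 3.52 to 19.3). Uninjected cells ranged from 0 to 149 per 10000 with a median of 2.26, and treated cells from 0 to 22.2 with a median of 0. The log-fold was -1.33, from means of 6.77 and 1.05, and it was -0.63 with summed libraries. The 6 treated cells with the transcript had 22.2, 18.7, 13, 11.2, 1.24 and 0.876 per 10000. Of these 4 lay above the uninjected median and 2 below it, so the libraries overlap. The summed rate was 2.34-fold higher in the uninjected library (1.69 to 3.33), and the gap in the shares of cells, which also depend on depth, was wider. At equal depth *Prdx2* was found in 20 of 81 uninjected cells (24.7%, 15.8 to 35.5) and 4 of 50 treated cells (8.0%, 2.22 to 19.2), and these intervals overlap.

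*Prdx1*, on chromosome 4 (116685544 to 116700822, plus strand), encodes the closely related enzyme of the cytosol and nucleus. It had 166 uninjected counts (142 to 193) in 47 cells and 14 treated counts (7.65 to 23.5) in 5 cells, of which 1 cell held 10. Its scaled values ran from 0 to 28.8 with a median of 0.561 in uninjected cells and from 0 to 16.3 with a median of 0 in treated cells. The log-fold of -0.74 was -0.40 with summed libraries and -0.29 after thinning, which left *Prdx1* in 8 of 81 uninjected and 3 of 50 treated cells. It is the member whose place beyond 0.3 was lost at equal depth, by a small margin and in 1 random draw. Whether another draw would do the same was not tested. *Prdx3*, on chromosome 19 (60864051 to 60874556, minus strand), the peroxiredoxin of the mitochondrion, was rare, with 11 uninjected counts in 7 cells and 1 treated count, a log-fold of -0.05 and a ratio of summed rates of 2.06 (0.30 to 88.7).

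*Prdx5*, also on chromosome 19 (6906697 to 6910106, minus strand), encodes the atypical peroxiredoxin found in mitochondria, peroxisomes and cytosol. It is the only member without a treated count. Its 59 uninjected counts (44.9 to 76.1) came from 24 of 82 cells (29.3%, 19.7 to 40.4), which ranged up to 25.3 per 10000 around a median of 0. Set against a floor of 3 counts over the treated library, *Prdx5* was 3.68-fold lower there. The interval of 0 counts reaches 3.69, so this fold is not a lower bound. A share of 0 of 64 cells allows up to 5.60% of cells with a count, which does not limit the cells that use the gene at these depths. Its log-fold was -0.66, which became -2.33 with a pseudocount of 0.1 in place of 1, and after thinning it was found in 5 of 81 and 0 of 50 cells, so the shares overlap at equal depth.

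*Gpx4*, on chromosome 10 (80047166 to 80056439, plus strand), reduces lipid peroxides within membranes and is the enzyme that holds back ferroptosis. It showed the largest log-fold of the 10, at -1.46. Its 455 uninjected counts (414 to 499) came from 69 of 82 cells (84.1%, 74.4 to 91.3), whereas the treated library held 1 count in 1 of 64 cells (1.56%, 0.0396 to 8.40). Uninjected cells ranged from 0 to 34.1 per 10000 with a median of 1.88, and the 1 treated cell with a count had 11.7, since it held only 852 counts in all. Its summed rate was 85.2-fold higher in the uninjected library, with a wide interval (15.2 to 3374). *Gpx4* was the only member whose shares of cells did not overlap at equal depth, with 21 of 81 uninjected cells (25.9%, 16.8 to 36.9) and 0 of 50 treated cells (up to 7.11%). The 1 treated cell with a count, at 852, lay under the thinning depth of 867 and was left out. The 0 was thus set by the depth cut before any count was drawn.

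*Gpx1*, on chromosome 9 (108338903 to 108340343, plus strand), the soluble glutathione peroxidase of cytosol and mitochondria, had 36 uninjected counts (25.2 to 49.8) in 14 cells, 15 of them in 1 cell, and 1 treated count. Its log-fold was -0.18, or -1.03 with a pseudocount of 0.1. The ratio of summed rates was 6.74 (1.14 to 274), and without a larger number of counts its size could not be placed more closely. Both selenoenzymes shown with their TGA codons thus had 1 treated count each.

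**Figure D2:**
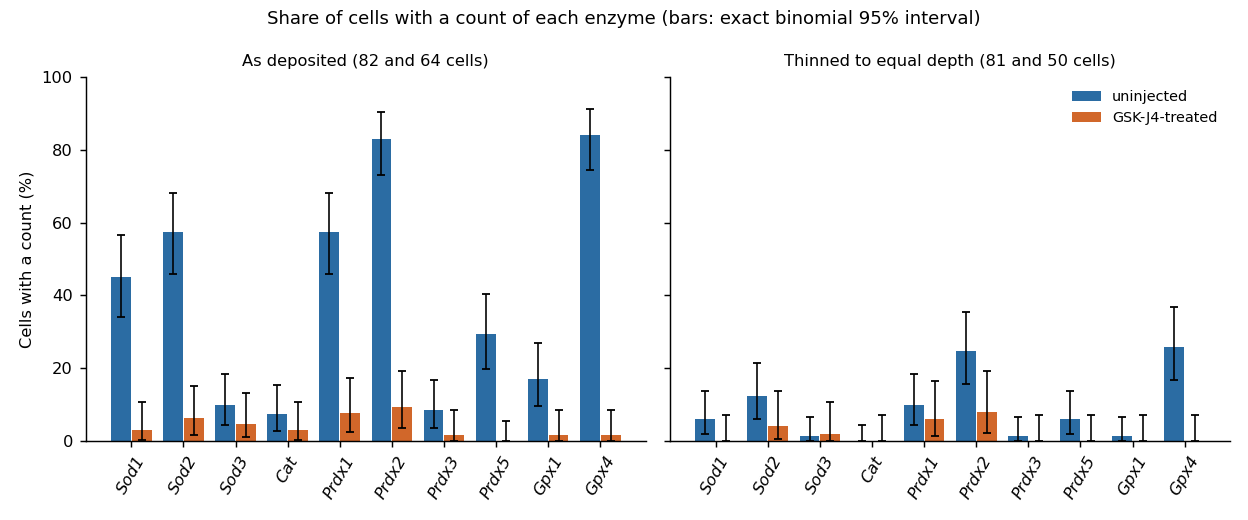
Percent of cells with at least 1 count of each enzyme in the uninjected (blue) and GSK-J4-treated (orange) library, with deposited counts of the cells kept by the filter on the left (82 and 64 cells) and thinned to 867 counts per cell on the right (81 and 50 cells), with exact binomial 95% intervals. On the left 6 enzymes were found in 29.3% or more of the uninjected cells and under 10% of the treated cells. On the right only the intervals of *Gpx4* do not overlap, where the 1 treated cell with a *Gpx4* count was left out as too shallow.

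The enzymes did not keep the same proportions in the 2 libraries. Of all counts on the 10 enzymes, *Gpx4* gave 25.3% (23.3 to 27.3) in the uninjected and 1.32% (0.0333 to 7.11) in the treated library, and *Sod2* 21.2% (19.3 to 23.1) and 10.5% (4.66 to 19.7). *Prdx2* took the opposite course, with 27.0% (25 to 29.2) and 51.3% (39.6 to 63.0). The share of *Sod1* differed little, at 10.1% and 9.21%. The treated proportions rest on few cells, because 2 cells held 16 and 15 of the 76 counts (40.8%) and no treated cell held more than 3 enzymes.

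Within the treated library the enzymes followed the cells that had more RNA counted. The 19 cells with a count of an enzyme had a median of 4707 counts in all, and the 45 cells without had 1843. The 14 treated cells with a cone marker count held 43 enzyme counts (6.21 per 10000 counts), and the 50 cells without held 33 (2.37 per 10000). Of the 43 counts 38 were in 3 cells with 1, 37 and 2 cone marker counts, and without these 3, a choice made after seeing the data, the other 11 cells held 5 (0.989 per 10000). The cell with the most enzyme counts, all 16 of them *Prdx2*, had no cone marker count. The single treated cell with 303 of the 445 cone marker counts held 2 enzyme counts, of *Sod2* and *Prdx3*.

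A measure of background is given by 396 olfactory and vomeronasal receptor genes, which cones are not known to use. Raw counts per gene are compared, not divided by gene length, so they only place the enzymes against this background. Their median was 4 counts per gene in the uninjected and 3 in the treated library. In the uninjected library 9 in 10 of these genes had at most 17.5 counts, and *Sod1*, *Sod2*, *Prdx1*, *Prdx2*, *Prdx5*, *Gpx1* and *Gpx4* lay above that level while *Sod3*, *Cat* and *Prdx3* lay below it. In the treated library the same level was 9 counts, and only *Prdx1* and *Prdx2* exceeded it. *Sod1* and *Sod2* had more counts than 82.6% and 87.1% of the receptor genes there, and *Gpx4*, *Gpx1* and *Prdx3* more than 10.9%. Treated counts of every enzyme but these 2 peroxiredoxins thus lay within the range of 9 in 10 background genes. The receptor genes took a larger share of the treated counts, at 1.43% against 0.624%.

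Among the uninjected cells the enzymes differed from cell to cell. In 30 of the 82 cells 5 or more of the 10 were found. The cell with the most enzyme counts held 168, of which 94 were *Sod2* and 64 *Gpx4*, and the next held 150, of which 107 were *Prdx2* and 2 *Sod2*. The fourth by this measure held 98, of which 60 were *Sod1* and 31 *Sod2*, in a total of only 9136. High counts of 1 enzyme in a cell were therefore not matched by high counts of all.

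The number of enzymes found rose with the depth of the cell. In the 28 shallowest uninjected cells (860 to 4814 counts) the median was 2 enzymes, in the middle 27 it was 4, and in the 27 deepest (10733 to 98250) it was 7. *Prdx2* and *Gpx4* were found in all 27 of the deepest cells and in 14 and 16 of the 28 shallowest. The share of counts on the enzymes did not rise with depth, at 0.201%, 0.188% and 0.152%, and at equal depth the median was 1 enzyme in each of these groups. Spearman's rho between depth and the number of enzymes was 0.84 over the 82 uninjected and 0.50 over the 64 treated cells, as a description of points that share a library.

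**Figure D3:**
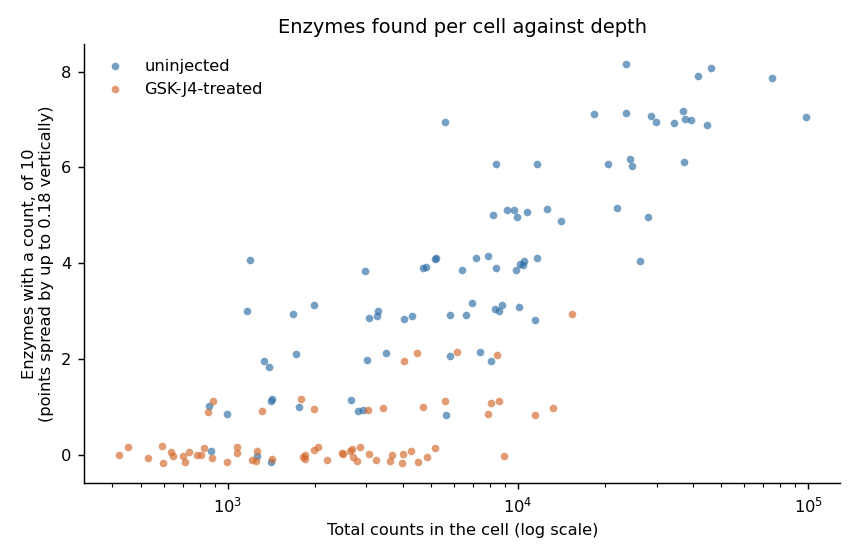
Number of the 10 enzymes with a count in each cell against the cell's total counts (log axis), for 82 uninjected (blue) and 64 GSK-J4-treated (orange) cells, with points spread vertically by up to 0.18. Treated cells lie at 0 to 3 enzymes, and uninjected cells climb from 0 to 8 as depth grows.

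The uninjected cells of plate columns 1 to 6 (39 cells, 546722 counts) and 7 to 12 (43 cells, 566702 counts) were close in depth but not in these enzymes. By the log-fold between sides 3 enzymes (*Sod1*, *Sod2* and *Prdx5*) were beyond 0.3 higher in columns 1 to 6 and 1 (*Prdx2*) in columns 7 to 12, where 9.0% and 8.42% of all genes were. *Sod1* had 146 counts on the first side and 36 on the second, a ratio of summed rates of 4.20 (2.90 to 6.23). *Sod2* had 281 and 100, a ratio of 2.91 (2.31 to 3.70), and *Prdx5* 50 and 9, a ratio of 5.76 (2.80 to 13.3). *Prdx5* was also found in more cells there, 18 of 39 against 6 of 43. *Prdx2* went the other way, with 159 and 328 counts, 1.99-fold more on the second side (1.64 to 2.42). *Gpx4* had 263 and 192 counts (ratio 1.42, 1.17 to 1.72), and *Prdx1* 69 and 97, whose interval includes 1.

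The size of these side differences depended on single cells. In an alternative added after the data were seen, the uninjected cell that held most counts of each gene was left out. This was done for summed rates and not for the log-folds between sides. The ratio of summed rates, first over second side, was then nearer to 1 for *Sod1* (2.52), *Sod2* (2.09), *Prdx5* (4.48) and *Prdx2* (0.616). For *Gpx4* it was farther from 1, at 1.99 (1.61 to 2.48). *Gpx1*, with 28 and 8 counts, went from 3.63 (1.61 to 9.21) to 1.78 (0.683 to 4.95). The receptor genes used as background differed little between sides (ratio 0.992, 0.946 to 1.04). The labels do not say what the plate sides hold. Set against the treated cells of the same columns, the log-fold of *Prdx5* was -1.01 on the first side and -0.18 on the second, that of *Sod1* -1.06 and -0.35, that of *Sod2* -1.34 and -0.32 and that of *Prdx2* -0.92 and -1.72. Those of *Gpx4* (-1.44 and -1.52) and *Prdx1* (-0.75 and -0.72) were alike on both. The log-folds of *Sod1*, *Sod2*, *Prdx2* and *Prdx5* thus differed between sides, but single cells weighed on the means. On the second side 1 treated cell had a scaled *Sod2* value of 38.3 (mean 1.33), and 1 uninjected cell a *Prdx2* value of 149 (mean 8.35). On the first side 1 uninjected cell had 65.7 for *Sod1* (mean 3.19) and another 25.3 for *Prdx5* (mean 1.75). Whether these log-folds depend on the plate side apart from such cells was not tested.

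**Figure D4:**
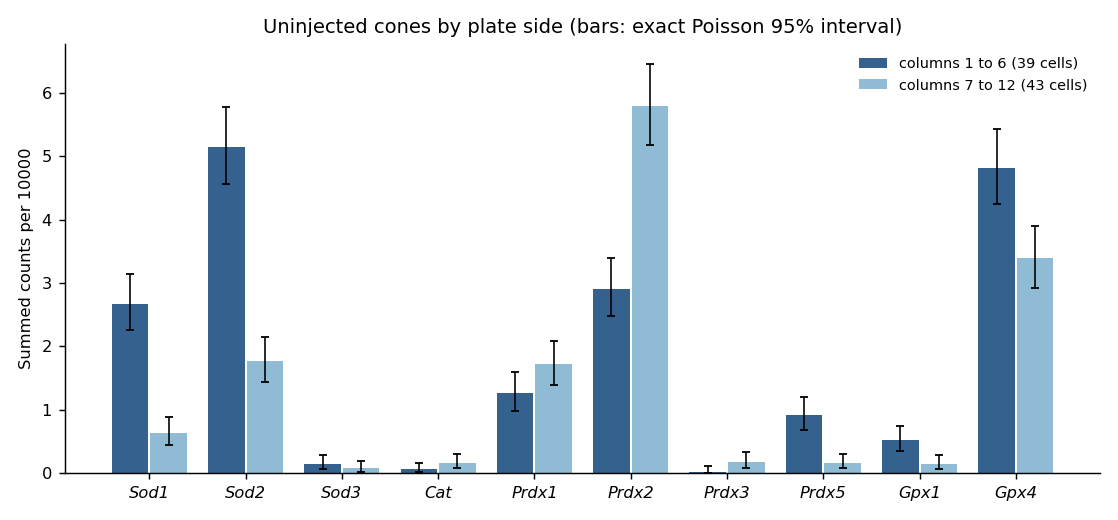
Summed counts per 10000 of each enzyme in uninjected cells of plate columns 1 to 6 (39 cells, dark) and 7 to 12 (43 cells, light), with exact Poisson 95% intervals for counting error. *Sod1*, *Sod2* and *Prdx5* are higher on the first side and *Prdx2* on the second.

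The genes that work beside the 10 enzymes were followed in 8 lists, of which 73 of 92 genes had counts in at least 3 cells. Of these 19 were lower by more than 0.3 (26.0%) and 7 higher (9.59%), against 11.8% and 12.6% of all genes, and the median log-fold was -0.06. The counts of the single lists are a description, to be read against these shares and against 24% and 20.4% of the genes found in 10% or more of the cells of a library, which 43 of the 73 were. The list closest in function, the other peroxiredoxins and glutathione peroxidases, had 1 of 4 lower and 0 higher. This was *Prdx6*, which reduces phospholipid hydroperoxides, with 169 counts in 43 uninjected cells and 2 in 2 treated cells (log-fold -0.93). Of the 169 counts 58 were in 1 uninjected cell. *Prdx4* had 28 counts in 12 uninjected cells and 0 treated counts, but a log-fold of -0.26. With the pseudocount of 1 this was the lowest value it could take. Other sparse genes of the lists could not be called lower for the same reason. *Gpx8*, of the endoplasmic reticulum, had 38 and 10 counts, a log-fold of 0.06.

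In the thioredoxin system, which feeds electrons to the peroxiredoxins, 4 of 11 genes were lower and 0 higher, with a list median of -0.13. *Txn2*, the mitochondrial thioredoxin, had 212 and 3 counts (log-fold -1.03), *Txn1*, the cytosolic one, 109 and 0 (-0.71), and the glutaredoxin *Glrx3* 119 and 2 (-0.49). Of the 119 *Glrx3* counts 50 were in 1 uninjected cell. *Txnrd1*, which recharges thioredoxin in the cytosol, had 40 and 11 counts and a log-fold of -0.14. In the glutathione list 3 of 14 were lower and 1 higher, around a median of -0.03. The lower ones were transferases or related enzymes. *Gstp1* had 1331 counts in 69 uninjected cells and 0 in the treated library, 83.1-fold lower when set against the floor of 3 counts. *Mgst3* had 120 and 0 counts and *Gstz1* 89 and 0. Of the 89 *Gstz1* counts 51 were in 1 uninjected cell. *Slc7a11*, the cystine carrier that supplies glutathione synthesis, was the higher one, with 20 counts in 10 uninjected cells and 14 in 10 treated cells (log-fold 0.42, 3.74-fold by summed rate, 1.75 to 7.78). The receptor genes used as background were higher in the treated library as well, at 1.43% of counts against 0.624%. Whether *Slc7a11*, or *Maff*, *Aox1* and *Sesn1* below, rose beyond this background was not tested.

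Metal handling genes were lower in 4 of 7 and higher in 0, with a list median of -0.75. The ferritin chains that store iron led it, with *Fth1* at 608 counts in 79 uninjected cells and 1 treated count (log-fold -1.99) and *Ftl1* at 809 and 0 (-2.14), and the metallothionein *Mt1* had 183 and 1 (-1.22). *Ccs*, the chaperone that loads copper into the *Sod1* protein, had 30 and 1 counts, a log-fold of -0.26. Of the NRF2 pathway genes 1 of 13 was lower and 1 higher, near the shares of all genes. The lower was *Taldo1*, of the pentose phosphate pathway, at 156 and 2 counts (-0.90), and the higher *Maff*, a small MAF protein that pairs with NRF2, at 18 and 15 (0.54). *Nfe2l2*, which encodes NRF2 itself, had 10 and 1 counts, at which depth no difference could be seen.

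Methionine sulfoxide reductases, which repair oxidized methionine, had 1 of 3 lower and 1 higher. *Msra* had 74 and 1 counts (log-fold -0.42), of which 48 were in 1 uninjected cell. *Msrb3* was the exception of all lists, with 1 uninjected count and 179 treated counts in 54 of 64 cells (log-fold 2.26), although 126 of them were in 1 cell. Sources of superoxide and hydrogen peroxide were lower in 0 of 10 and higher in 2, among them the aldehyde oxidase *Aox1*, with 40 counts in 18 uninjected and 25 counts in 19 treated cells (0.59). Other protective genes were lower in 5 of 11 and higher in 2. *Park7*, which senses oxidants, had 350 and 1 counts (-1.64), and the selenoprotein genes *Selenow* and *Selenok* had 478 and 2 (-1.60) and 339 and 1 (-1.50). Of the 339 *Selenok* counts 106 were in 1 uninjected cell. *Sesn1*, a sestrin, was higher, at 46 and 18 counts (0.42).

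**Figure D5:**
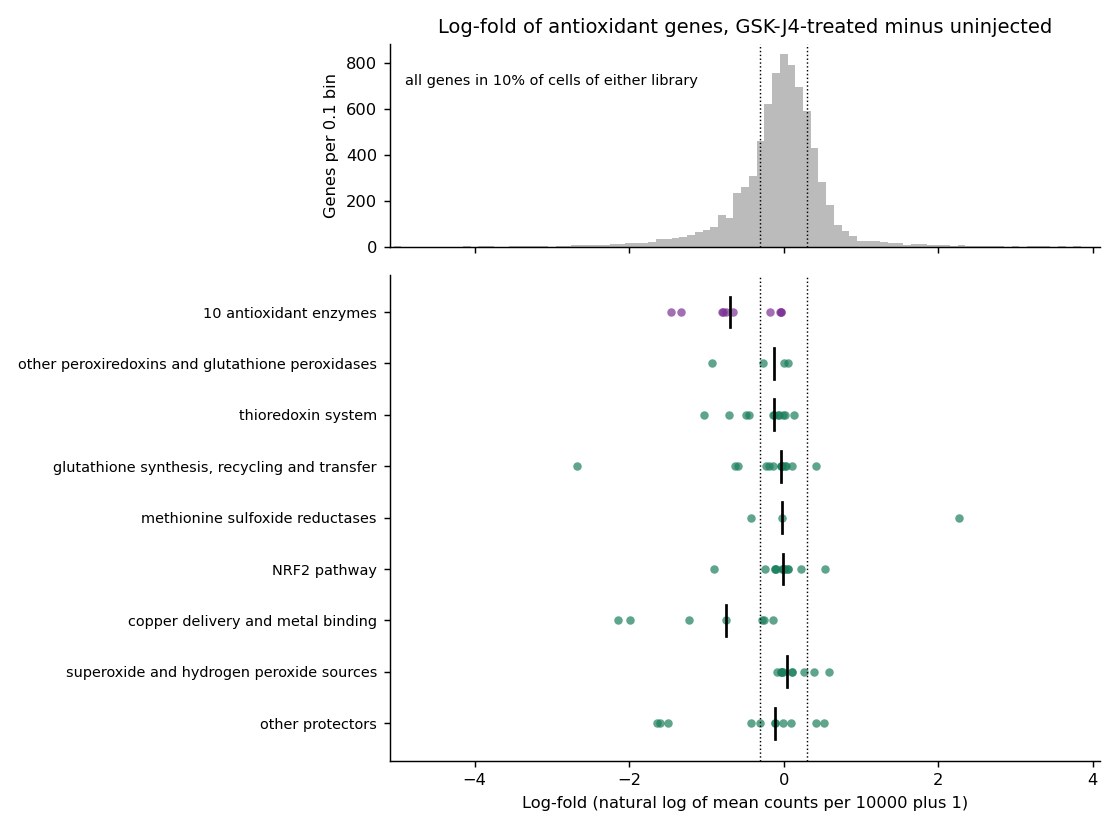
Log-folds of the 10 enzymes (purple) and of 8 lists of related genes (green), each point a gene and each black line the list's median, below the distribution over the 7682 genes found in 10% or more of the cells of a library, with dotted lines at 0.3 in either direction. The enzymes have a median of -0.70 and the metal handling genes -0.75, whereas the other lists have medians between -0.13 and 0.05.

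Some of these counts can hold reads of other genes. *Sod1* overlaps *Scaf4*, *Prdx2* overlaps *Rnaseh2a* and *Junb*, and *Prdx5* overlaps *Trmt112*, each on the opposite strand, and whether strand was used in counting is not given in the sources used here. Over both libraries *Scaf4* had 11 counts, *Rnaseh2a* 133, *Junb* 25 and *Trmt112* 196. *Gpx4* has an annotated processed pseudogene, *Gpx4-ps2*, that had no row of its own here. *Gstp1*, *Fth1* and *Ftl1* have near-identical copies in the mouse genome, so their counts are uncertain in the same way.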

How the data were processed

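The authors deposited counts of UMI-deduplicated reads, as unnormalized whole numbers for each gene in each cell, made per the paper's methods with the CLC Genomics Workbench and featureCounts (also in the submitters' processing notes) on Gencode M17, with 3' and 5' counts summed. The genome is named there with a human build number, so coordinates here are from GENCODE vM21 on GRCm38. Genes seen in fewer than 3 cells were dropped, as were cells with under 200 genes or over 5% mitochondrial counts, leaving 15947 genes, 82 of 85 uninjected and 64 of 66 treated cells. Cells were scaled to 10000 counts and averaged. No batch correction was applied and no doublet caller was run, since 1 cell was sorted per well. The treated cells deposited were fewer than the study states. Of the wells, 54 were used on both plates, and 0 of these pairs held identical counts.

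Intervals at 95% are exact Poisson for counts, exact conditional binomial for ratios and Clopper-Pearson for shares. With 1 library per condition no p-value was computed. A gene at 0 was set against a floor of 3 counts over the library, which gives a size and not a bound. Thinning drew 867 counts per cell, the 10th percentile of depth, without replacement and in 1 random draw. The counts of 3' and 5' ends were not divided by gene length, so the enzymes' levels were not ranked, and the comparison with receptor genes is one of raw counts.

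The members and lists were chosen with earlier results of these data known. Named genes were all members and, in each list, up to 3 genes in each direction with the largest log-folds beyond 0.3 and found in 10% or more of the cells of a library. *Gpx8*, *Txnrd1*, *Ccs* and *Nfe2l2* were named for their role after their values were seen, and *Prdx4* to show a limit of the log-fold. Markers of other cell types took, in uninjected and treated cells, 0.105% and 0.0312% (Müller glia), 0.00701% and 0.0125% (bipolar), 0.00467% and 0.00671% (amacrine), 0.00745% and 0.00767% (ganglion), 0.000539% and 0.00144% (microglia), 0.00260% and 0.00384% (retinal pigment epithelium) and 0.000269% and 0% (erythrocyte) of counts. Python 3.11.15, numpy 2.4.6, pandas 2.3.3 and scipy 1.17.1 were used, and the calculation was tested on simulated data. All simulated cells of a library shared the same proportions of genes, so the test did not cover the spread between real cells.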

Additional observations from a re-analysis of the deposited data

How the results depend on the processing

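The count of enzymes lower by more than 0.3 was 6, and it was 6 with summed libraries, all deposited cells, at least 500 genes per cell (73 and 46 cells), plate columns 1 to 6 or without the top cell of each library, 7 with median-ratio size factors, 5 after thinning (without *Prdx1*) or in plate columns 7 to 12 (without *Prdx5*), and 8 with a pseudocount of 0.1. In all of them 0 were higher. Of 90 log-folds of single enzymes under 9 alternatives, 62 stayed within the counting interval of the reported value, 28 did not, and 0 of those beyond 0.3 changed sign. This interval is not printed here and does not cover the spread between cells. The pseudocount of 0.1 also changes the scale of the log-fold, so its values are not directly comparable with that interval. Median-ratio scaling moved the median of the 7682 genes to -0.14, and relative to it *Gpx1* stood at -0.18 and *Sod3*, *Cat* and *Prdx3* at 0.11, 0.080 and 0.056. The pseudocount of 0.1 raised the median of all genes by 0.15, to 0.18, that of the 7682 genes was -0.017 with it, and that of the enzymes went from -0.70 to -1.33. The share of uninjected counts on the enzymes (0.162%) was 0.189% as a mean over cells, 0.172% thinned, 0.184% and 0.140% in plate columns 1 to 6 and 7 to 12, and 0.152% without the top cell. The treated share was 0.0282% as a mean over cells. The percent of uninjected cells with any enzyme was 60.5% thinned and 100% with at least 500 genes. No paired analysis was possible because there is 1 library per condition. Under the reported scaling, the low uninjected means of *Sod3*, *Cat*, *Prdx3* and *Gpx1* with the pseudocount of 1 kept them from being called lower. The shallow treated cells also limit what could be seen of their ratios of summed rates. No difference between animals, plates or injections is covered by any value.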
